A study of Mus with 12 samples.

Results

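The genes described here are 31 genes of cholesterol and fatty acid synthesis, measured by RNA-seq in the whole uterus of pregnant mice. The rule took, in each of the 2 deposited FPKM tables, the rows that carry one of the 31 gene names and an Ensembl transcript. FPKM are fragment counts scaled to transcript length and to the mapped fragments of the library, so levels of different genes can be set side by side within a table. The rule found 31 of 31 genes in both tables, 31 rows among 87235 in the table of E0.5 and E4.5 and 31 rows among 40787 in the table of E15.5 and E18.5. Of these, 8 genes form the mevalonate pathway up to squalene, 9 convert squalene to cholesterol, 4 belong to sterol control and transport and 10 make or modify fatty acids.

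Cholesterol is built from acetyl-CoA by way of mevalonate, isoprenoids, squalene and lanosterol, and fatty acids are built from acetyl-CoA by way of malonyl-CoA. Both routes are driven by the SREBP transcription factors (genes Srebf1 and Srebf2), which are held in the endoplasmic reticulum by INSIG proteins while sterols are plentiful and which turn the enzymes on together when sterols are scarce. In the reproductive tract, cholesterol is a component of membranes and, in the ovary, the starting material of progesterone.

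There were 12 libraries, each from the whole uterus of 1 pregnant ICR mouse, an outbred stock, without any genetic change or treatment, in 4 groups of 3 mice, taken at E0.5 or E4.5 (days after mating) and, late in pregnancy, at E15.5 or E18.5. The series design gives an age of 8 weeks. The study collected them to relate uterine RNA to the level of progesterone, which changes around implantation and before labor, and E0.5 was therefore set against E4.5 and E18.5 against E15.5. The labels name a poly(A) selection while the study's methods name removal of ribosomal RNA, so which RNA the libraries hold is not settled. In whole organs, fewer cells of a type and less RNA per cell cannot be told apart, and a uterus at E15.5 or E18.5 can hold embryonic tissue as well.

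Counts were present in the table of E0.5 and E4.5 only, with 58020989 to 70906881 counts per library, and the depth behind the FPKM of E15.5 and E18.5 is unknown. The counts of single members ran from 130 (Stard4) to 77138 (Me1). Of the member rows there, 6 merge other genes, namely Acat2 with Acat3, Mvd with Cyba, Fdps with Rusc1, Tm7sf2 with Vps51 and Zfpl1, Scd2 with Scd3, and Srebf2 with a predicted gene, and their values cannot be assigned to one gene. In the other table this holds for 2, Fdps and Tm7sf2. Another 22 rows of the first table and 1 of the second carry a member's name without an Ensembl transcript and were not used.

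One library stood apart before any comparison of days. E4.5 replicate 3 had a summed FPKM of 1740.4 over 8 ovary and corpus luteum markers, against 5.49 and 5.75 in the other E4.5 libraries and 7.59 to 10.0 in the E0.5 libraries, and all 8 markers were highest there. Its Hsd3b1 (3 beta-hydroxysteroid dehydrogenase) was at 519 FPKM against 0.0368 to 0.0541 in the other libraries, its Cyp11a1 (which cuts the side chain of cholesterol) at 378 against 0.0513 to 0.951, and Fshr, the FSH receptor, at 3.63 against 0 in all others. The adrenal enzymes Cyp11b1 and Cyp11b2 were at 0 in it. The same library was lowest of the 6 for smooth muscle markers (summed FPKM 190.6 against 658.8 to 1080.5), for epithelium markers (86.2 against 132.9 to 379.1), for stroma markers (150.7 against 237.6 to 481.0) and for 6 uterus markers (11.1 against 30.6 to 92.0), although Esr1 and Pgr, the estrogen and progesterone receptors, were still present at 5.54 and 1.31 FPKM. Adrenal markers summed to 5.04 to 20.8 FPKM at E0.5, nearly all of it Cyp21a1. At E4.5 they summed to 0.549, 0.0801 and, in replicate 3, 0.563 FPKM. Yolk sac and liver markers summed to at most 0.164 at E0.5 and to 1.55 to 13.1 at E4.5, and trophoblast markers to at most 0.220 in any library of this table. The fold changes and calls of E0.5 against E4.5 are therefore given with and without E4.5 replicate 3.

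In the comparison of E0.5 with E4.5, the sterol genes were mainly low and even in 5 libraries and high in E4.5 replicate 3. This library was the highest of the 6 for 27 of the 31 members, against 24.0% of all tested rows, and was at least 2-fold above every other library for 19 members, against 6.99% of rows. Summed over the 8 mevalonate pathway genes, FPKM was 25.7, 27.6 and 23.3 at E0.5 and 31.3, 26.3 and 153.9 at E4.5. Over the 9 genes from squalene to cholesterol the sums were 28.5, 23.4 and 25.0 at E0.5 and 25.5, 28.0 and 158.2 at E4.5. With ovary markers moving in the same library, their part in these sums was not tested.

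**Figure D1:**
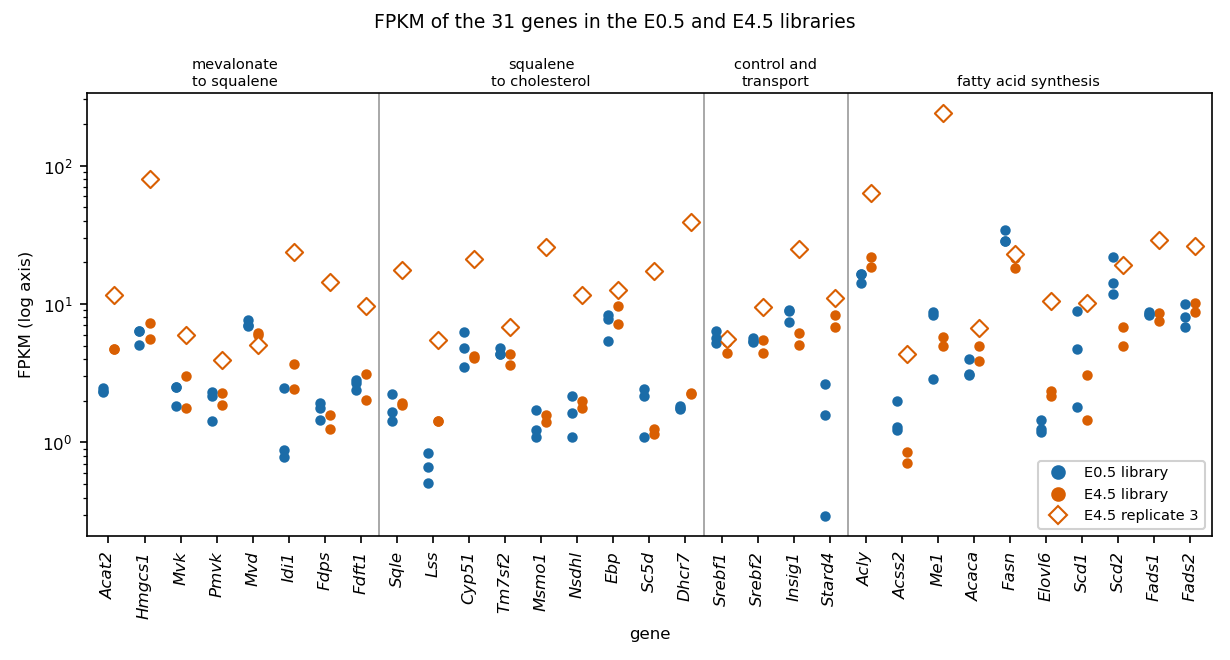
FPKM (log axis) of the 31 genes, grouped by role, in each of the 3 E0.5 libraries (blue circles), the 2 other E4.5 libraries (filled orange circles) and E4.5 replicate 3 (open orange diamonds). The diamond is the highest point for 27 of 31 genes, and the largest gap belongs to Me1, at 239 FPKM against 2.88 to 8.68 in the other libraries.

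Between E0.5 and E4.5, 0 of 31 members had an adjusted p under 0.05 (edgeR quasi-likelihood, adjusted by Benjamini-Hochberg), against 1.22% of all tested rows. At an unadjusted p under 0.05 the same test held 1 member higher at E0.5 (background 8.30%) and 9 lower (background 8.75%). DESeq2 called 5 at an adjusted p under 0.05 (Acat2, Idi1, Lss, Stard4 and Elovl6, all lower at E0.5, against 9.74% of rows) and gave no adjusted p for 7 others (Hmgcs1, Fdps, Sqle, Msmo1, Sc5d, Dhcr7 and Me1). Limma on log2(FPKM + 0.1) called 0 (against 1.51%) and held 7 at an unadjusted p under 0.05, against 18.0% of rows. The study's criterion, a log2 fold change (log2FC) of 1 or more in either direction together with an unadjusted p under 0.05, held 8 members lower at E0.5 (background 5.82%) and 0 higher (background 6.37%). In either direction that count of 8 was 3, 5 and 3 without E0.5 replicate 1, 2 and 3, beside 10.1%, 10.1% and 10.3% of all tested rows. It was 12, 16 and 4 without E4.5 replicate 1, 2 and 3, beside 11.4%, 12.1% and 14.4% of rows. Each library is a separate mouse in the study's methods, so the p-values measure the spread between 3 mice a group.

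The differences depended on E4.5 replicate 3. The median log2FC of E0.5 relative to E4.5 over the 31 members moved from -0.88 to -0.08, and the members below 0 went from 26 to 16. That of all tested rows was -0.01 and 0.06. For the 25785 tested rows with an Ensembl transcript, which all members have, it was -0.13, and -0.05 without that library. With the remaining 5 libraries, 3 members were lower at E0.5 at an adjusted p under 0.05 in edgeR (Acat2, Lss and Elovl6, background 3.17%) and 1 was higher (Scd2, background 3.11%). By the study's criterion 3 were lower (Acat2, Lss and Stard4, background 6.44%) and 1 was higher (Scd2, background 7.99%).

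**Figure D2:**
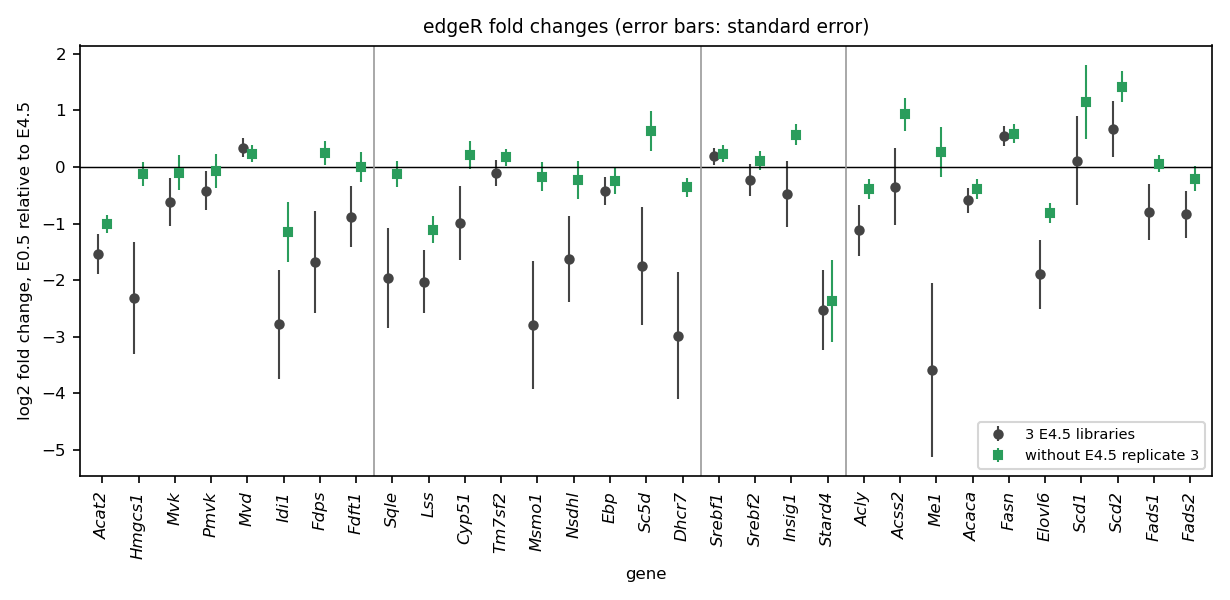
Log2FC of E0.5 relative to E4.5 for the 31 genes from edgeR, with its standard error, from 3 E4.5 libraries (grey circles) and without E4.5 replicate 3 (green squares). The squares lie near 0 for most sterol genes, with Hmgcs1 moving from -2.32 to -0.13 and Dhcr7 from -2.98 to -0.36, while Acat2, Idi1, Lss and Stard4 stayed at or below -1.01.

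Among the mevalonate pathway genes, Hmgcs1, which makes HMG-CoA, lies on chromosome 13 at 119690379 to 119708082 (GRCm38). It had 6.42, 6.41 and 5.03 FPKM at E0.5 and 7.24, 5.60 and 79.6 at E4.5. Only E4.5 replicate 3 departed from the rest, and the other 5 libraries of both days overlapped. The log2FC was -2.32 (standard error, SE, 0.99, adjusted p = 0.300, edgeR) and without that library -0.13 (SE 0.21, adjusted p = 0.770, edgeR).

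Idi1, which isomerises isopentenyl diphosphate, had 0.783, 2.49 and 0.880 FPKM at E0.5 and 3.66, 2.43 and 23.6 at E4.5. Its groups overlapped at E0.5 replicate 2, and the log2FC went from -2.78 (SE 0.96) to -1.15 (SE 0.53) without E4.5 replicate 3, and to -3.54 without E0.5 replicate 2. The merged row of Acat2, the cytosolic thiolase at the start of the pathway, was separated by day in all libraries. It lies on chromosome 17 at 12923737 to 12960747 and had 2.46, 2.35 and 2.31 FPKM at E0.5 and 4.76, 4.73 and 11.7 at E4.5, with no overlap between the days. The log2FC of this row was -1.54 (SE 0.36, adjusted p = 0.102, edgeR) and -1.01 without E4.5 replicate 3 (SE 0.16, adjusted p = 0.0160, edgeR).

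The remaining genes of the pathway did not pass the study's criterion. Mvk and Pmvk, the kinases of mevalonate and phosphomevalonate, had log2FC values of -0.62 and -0.42 with all libraries, and -0.10 and -0.08 without E4.5 replicate 3. For Fdps and Fdft1, which make farnesyl diphosphate and squalene, the values were -1.68 and -0.88, and 0.25 and 0.00 without that library. Mvd, the decarboxylase, was the one member for which E4.5 replicate 3 was the lowest library, in a row shared with Cyba. It had 7.08, 6.92 and 7.68 FPKM at E0.5 and 6.01, 6.22 and 5.03 at E4.5, with a log2FC of 0.34 (SE 0.17, adjusted p = 0.366, edgeR), and 0.23 without E4.5 replicate 3.

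Of the genes from squalene to cholesterol, Sqle, the squalene epoxidase that opens this branch, had 2.22, 1.67 and 1.43 FPKM at E0.5 and 1.87, 1.94 and 17.6 at E4.5. Its levels on both days overlapped outside E4.5 replicate 3, and the log2FC went from -1.96 (SE 0.88) to -0.13 (SE 0.23) without it. Msmo1, the sterol C4 demethylase, had 1.71, 1.09 and 1.23 FPKM at E0.5 and 1.57, 1.41 and 26.0 at E4.5, and it passed the study's criterion at -2.79 (SE 1.13) but stood at -0.17 (SE 0.25) without that library. The same held for Dhcr7, which carries out the last reduction to cholesterol and lies on chromosome 7 at 143823145 to 143848410. It had 1.76, 1.83 and 1.73 FPKM at E0.5 and 2.27, 2.24 and 39.2 at E4.5, so the days did not overlap, but the log2FC of -2.98 (SE 1.13) fell in size to -0.36 (SE 0.17, adjusted p = 0.288, edgeR) once E4.5 replicate 3 was left out.

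Lss, lanosterol synthase, kept a difference outside that library. Its levels were 0.840, 0.506 and 0.661 FPKM at E0.5 and 1.44, 1.42 and 5.53 at E4.5. All E4.5 libraries were above all E0.5 libraries, with a log2FC of -2.03 (SE 0.56, adjusted p = 0.142, edgeR), and -1.11 without E4.5 replicate 3 (SE 0.24, adjusted p = 0.0447, edgeR). The other members of this branch, Cyp51, Tm7sf2, Nsdhl, Ebp and Sc5d, ranged from -1.75 (Sc5d) to -0.11 (Tm7sf2) with all libraries and from -0.24 (Ebp) to 0.64 (Sc5d) without it, and none of them passed the criterion.

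Neither SREBP gene was separated by day. Srebf1 had 6.37, 5.22 and 5.67 FPKM at E0.5 and 4.4, 5.30 and 5.61 at E4.5, and it was one of the 4 members for which E4.5 replicate 3 was not the highest library. Its log2FC was 0.19 (SE 0.15, adjusted p = 0.569, edgeR), and 0.23 without that library. Srebf2, the factor that drives the sterol enzymes, had 5.31, 5.42 and 5.65 FPKM at E0.5 and 5.51, 4.44 and 9.58 at E4.5, with a log2FC of -0.23 (SE 0.28), and 0.11 (SE 0.17) without E4.5 replicate 3.

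Insig1, which holds the SREBP factors back and is itself one of their targets, had 8.85, 7.45 and 9.0 FPKM at E0.5 and 6.16, 5.03 and 25.0 at E4.5. Here E0.5 lay above the other pair of E4.5 libraries, and leaving out E4.5 replicate 3 turned the log2FC from -0.48 (SE 0.58) to 0.57 (SE 0.19, adjusted p = 0.153, edgeR). Stard4, a carrier of cholesterol between membranes, had 2.65, 0.294 and 1.57 FPKM at E0.5 and 8.37, 6.85 and 11.0 at E4.5. The 3 E4.5 libraries were alike for Stard4 and lay above all E0.5 libraries, where replicate 2 was far below the rest. The log2FC was -2.53 (SE 0.70, adjusted p = 0.142, edgeR), and -2.37 (SE 0.72, adjusted p = 0.116, edgeR) without E4.5 replicate 3. It moved more with the E0.5 libraries, to -3.20 without replicate 1 and -2.05 without replicate 2.

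In fatty acid synthesis the summed FPKM of the 10 genes was 112.1, 86.7 and 91.4 at E0.5 and 83.2, 74.0 and 431.4 at E4.5. Me1, the malic enzyme that supplies NADPH, made up 239 FPKM of the last value. It lies on chromosome 9 at 86581371 to 86695953 and had 8.68, 2.88 and 8.35 FPKM at E0.5 and 5.82, 4.98 and 239 at E4.5, the largest departure of E4.5 replicate 3 among the members at 27.5 times the highest other library. Its log2FC was -3.59 (SE 1.53, adjusted p = 0.299, edgeR) and 0.27 (SE 0.44) without that library. Acly, which makes cytosolic acetyl-CoA from citrate, had 16.6, 14.1 and 16.4 FPKM at E0.5 and 22.0, 18.4 and 63.6 at E4.5. The days did not overlap for Acly, with a log2FC of -1.12 (SE 0.45) that became -0.39 (SE 0.17, adjusted p = 0.240, edgeR) without E4.5 replicate 3.

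Elovl6, which lengthens palmitate, had 1.19, 1.45 and 1.26 FPKM at E0.5 and 2.15, 2.36 and 10.5 at E4.5, again without overlap. Its log2FC was -1.90 (SE 0.61, adjusted p = 0.189, edgeR), and -0.81 (SE 0.18, adjusted p = 0.0453, edgeR) without E4.5 replicate 3. Fasn, the fatty acid synthase itself, went the other way. It lies on chromosome 11 at 120805846 to 120825005 and had 34.3, 28.6 and 28.3 FPKM at E0.5 and 21.6, 18.1 and 22.9 at E4.5, so that every E0.5 library was above every E4.5 library. The log2FC of 0.55 (SE 0.18, unadjusted p = 0.0180, adjusted p = 0.190, edgeR) was nearly the same without E4.5 replicate 3, at 0.59 (SE 0.17, adjusted p = 0.1, edgeR).

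The desaturases did not share a pattern. The row of Scd2 and Scd3 on chromosome 19 (44203269 to 44306864), whose enzymes put the first double bond into stearate and palmitate, had 21.8, 14.2 and 11.9 FPKM at E0.5 and 5.01, 6.79 and 19.0 at E4.5. At E4.5, replicate 3 lay inside the range of E0.5 and the other libraries lay below it, and the log2FC went from 0.67 (SE 0.50, adjusted p = 0.532, edgeR) to 1.42 (SE 0.27, adjusted p = 0.0313, edgeR) without that library. Scd1 had 8.90, 4.75 and 1.79 FPKM at E0.5 and 3.05, 1.45 and 10.1 at E4.5, and its days overlapped with and without E4.5 replicate 3, at log2FC values of 0.11 (SE 0.79) and 1.15 (SE 0.65). The summed FPKM of 7 adipocyte markers was 258.5, 87.9 and 84.3 at E0.5 and 28.9, 16.2 and 90.4 at E4.5. It was also low in the same pair of E4.5 libraries. Cfd made up 176.58, 56.8 and 57.7 FPKM of it at E0.5 and 15.6, 4.41 and 56.0 at E4.5. Lep was at 0.422 to 0.613 FPKM at E0.5 and overlapped with that pair (0.640 and 0.329). Pck1 was not lower in that pair (4.78 and 7.75 FPKM) than in replicate 3 (4.66). The part of adipose tissue in the values of Scd1 and Scd2 was not tested.

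Fads1 and Fads2, the desaturases of polyunsaturated fatty acids, had log2FC values of -0.80 and -0.84, and 0.06 and -0.21 without E4.5 replicate 3. Acaca, the acetyl-CoA carboxylase that commits carbon to fatty acids, and Acss2, which activates acetate, had -0.59 and -0.35, and -0.39 and 0.93 without it. Between all 6 libraries the days did not overlap for 2 members higher at E0.5 (Mvd and Fasn, against 12.8% of tested rows) and for 6 lower (Acat2, Lss, Dhcr7, Stard4, Acly and Elovl6, against 12.5%). Without E4.5 replicate 3, 4 members were higher at E0.5 at an unadjusted p under 0.05 in edgeR (Insig1, Acss2, Fasn and Scd2, background 11.0%) and 4 were lower (Acat2, Lss, Stard4 and Elovl6, background 10.4%).

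Other genes of these pathways were taken from a fixed list of 5 sterol synthesis genes, 16 genes of sterol control, uptake and export, and 19 further genes of fatty acid synthesis and use, of which 18 were counted in the first table because Scd3 lies in the row of Scd2. Of the sterol synthesis genes 2 were lower at E0.5 by the study's criterion (against 5.82% of all tested rows) and 0 higher (against 6.37%). Among them was Hsd17b7, an enzyme of sterol synthesis and of steroid conversion, with 1.95, 1.10 and 1.31 FPKM at E0.5 and 1.51, 1.34 and 165 at E4.5. No gene of this list met the criterion without E4.5 replicate 3, where the log2FC of Hsd17b7 was 0.01.

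Of the genes of control, uptake and export 3 were lower at E0.5 (against 5.82% of rows) and 0 higher (against 6.37%) by the criterion, Scarb1 and Tmem97 among them. Scarb1, the receptor that takes up cholesterol from HDL, had 2.78, 2.14 and 1.99 FPKM at E0.5 and 6.48, 5.60 and 73.5 at E4.5, with a log2FC of -3.58 (SE 1.04) and of -1.41 without E4.5 replicate 3 (adjusted p = 0.0102, edgeR). For Tmem97, a membrane protein that binds sterols, the levels were 1.22, 0.887 and 1.03 against 3.88, 3.13 and 8.19 FPKM, with a log2FC of -2.25 (adjusted p = 0.0584, edgeR) and of -1.76 (adjusted p = 0.0187, edgeR) without it. Leaving out that library put 2 of the list lower past the adjusted p (Scarb1 and Tmem97, against 3.17% of rows) and 2 higher (Mylip and Npc2, against 3.11%). Mylip, a ubiquitin ligase that sends the LDL receptor to degradation, then had a log2FC of 0.78 (adjusted p = 0.0287, edgeR), and Npc2, which carries cholesterol out of lysosomes, one of 0.69 (adjusted p = 0.0478, edgeR).

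Among the further fatty acid genes 2 were higher (against 6.37% of rows) and 1 lower (against 5.82%) at E0.5 by the criterion. Dgat2, which makes triglycerides, was the only gene of these lists past the adjusted p with all 6 libraries, at 78.3, 61.8 and 56.9 FPKM at E0.5 and 14.8, 17.1 and 12.4 at E4.5. Its log2FC was 2.16 (SE 0.21, adjusted p = 0.0173, edgeR), and 2.02 without E4.5 replicate 3. Summed epithelium markers were likewise higher in every E0.5 library (337.7 to 379.1 against 86.2 to 189.9 FPKM), though Krt7 and Krt18 of that list overlapped. Summed stroma markers were too (306.6 to 481.0 against 150.7 to 255.8 FPKM). The part of epithelium or stroma in the level of Dgat2 was not tested. Thrsp, a lipogenic nuclear protein, had 16.6, 10.2 and 5.47 FPKM at E0.5 and 1.68, 0.920 and 6.48 at E4.5, and its log2FC was 1.86, and 3.00 (adjusted p = 0.0245, edgeR) without E4.5 replicate 3. The adipocyte marker Adipoq, which encodes adiponectin, was at 27.8, 9.64 and 9.99 FPKM at E0.5 and 2.71, 1.61 and 13.4 at E4.5. It was low in the same E4.5 libraries as Thrsp, and its log2FC was 1.45, and 2.83 without replicate 3. Without that library the other adipocyte markers ranged from 1.87 (Plin1) to 3.22 (Cfd), except Lep at 0.08 and Pck1 at 0.79. The one lower was Gpam, the first enzyme of glycerolipid synthesis, at 8.22, 8.45 and 8.09 against 9.93, 15.9 and 44.1 FPKM, with a log2FC of -1.46 that was -0.65 without it. Without E4.5 replicate 3 the criterion held 3 of these genes higher (Dgat2, Thrsp and Lpin1, against 7.99% of rows) and 1 lower (Elovl7, against 6.44%). Lpin1, a phosphatidate phosphatase of triglyceride synthesis, then had a log2FC of 1.36 (adjusted p = 0.0132, edgeR), from 0.79 with all libraries. Its levels were 3.73, 2.58 and 3.21 FPKM at E0.5 and 1.14, 1.30 and 3.16 at E4.5. They were low in the same pair of E4.5 libraries as the summed adipocyte markers. The part of adipose tissue in the calls of Thrsp and Lpin1 was not tested. Elovl7, a fatty acid elongase, then had a log2FC of -1.15 (adjusted p = 0.015, edgeR), from -0.90.

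Near term, the groups of both sterol branches overlapped in their sums. The summed FPKM of the mevalonate pathway genes was 64.8, 38.5 and 38.6 at E15.5 and 38.0, 48.8 and 54.4 at E18.5, and that of the genes from squalene to cholesterol was 67.7, 43.4 and 43.3 at E15.5 and 47.7, 49.9 and 47.8 at E18.5. E15.5 replicate 1 was the highest library in both sums. It was the highest of the 6 libraries for 14 members (against 26.8% of rows) and the lowest for 7 (against 25.4%), and it was at least 2-fold above every other library for Cyp51 and Scd1 (2 members, against 1.99% of rows).

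**Figure D3:**
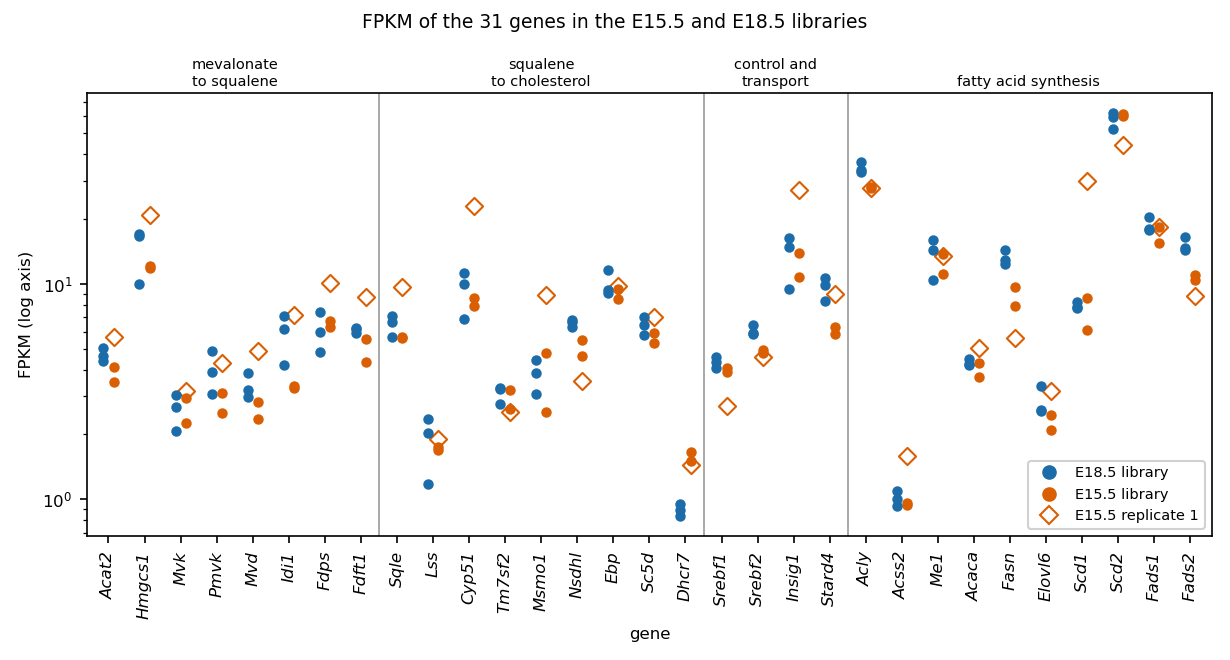
FPKM (log axis) of the 31 genes, grouped by role, in each of the 3 E18.5 libraries (blue circles), the 2 other E15.5 libraries (filled orange circles) and E15.5 replicate 1 (open orange diamonds). The diamond is the highest point for 14 genes, 7 of them of the mevalonate pathway, and blue points lie above all orange points for Nsdhl, Srebf1, Srebf2, Acly, Fasn and Fads2.

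No member passed an adjusted p under 0.05 between E18.5 and E15.5 in limma on log2(FPKM + 0.1) with Benjamini-Hochberg adjustment (0 of 31, against 0.0259% of tested rows), and none met the study's criterion (0 of 31, against 6.05%). On this scale the change of low genes is understated. At an unadjusted p under 0.05, limma held 6 members higher at E18.5 (Nsdhl, Srebf2, Stard4, Acly, Fasn and Fads2, against 6.64% of rows) and 1 lower (Dhcr7, against 5.51%). Without its intensity trend limma called 0 at the adjusted p and held 4 at an unadjusted p under 0.05 (Nsdhl, Dhcr7, Fasn and Fads2, against 12.0% of rows). The median log2FC of the members was 0.08 and that of all tested rows 0.02.

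The days did not overlap for 6 members higher at E18.5 (Nsdhl, Srebf1, Srebf2, Acly, Fasn and Fads2, against 10.9% of rows) and for 1 lower (Dhcr7, against 8.96%). Fasn had 14.3, 12.3 and 12.9 FPKM at E18.5 and 5.62, 9.68 and 7.85 FPKM at E15.5. Its lowest value was that of E15.5 replicate 1, and the log2FC was 0.79 (SE 0.21, unadjusted p = 0.00644, adjusted p = 0.210, limma), and 0.58 without that library. Fads2, which lies on chromosome 19 at 10062765 to 10101746, had 14.7, 16.4 and 14.3 FPKM at E18.5 and 8.79, 10.4 and 11.0 FPKM at E15.5. This was the lowest p of the 31 members, with a log2FC of 0.59 (SE 0.13, unadjusted p = 0.00299, adjusted p = 0.172, limma).

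Acly was even within each day, at 36.7, 33.1 and 33.7 FPKM at E18.5 and 27.8, 27.7 and 28.0 FPKM at E15.5, with a log2FC of 0.31 (SE 0.11, adjusted p = 0.328, limma). Srebf2 had 5.87, 5.90 and 6.45 FPKM at E18.5 and 4.58, 4.78 and 4.95 FPKM at E15.5, with a log2FC of 0.34 (SE 0.12, adjusted p = 0.317, limma). Srebf1 had 4.07, 4.32 and 4.55 FPKM at E18.5 and 2.70, 4.06 and 3.89 FPKM at E15.5, so the nearest libraries of the days stood at 4.07 and 4.06 FPKM. Nsdhl, a dehydrogenase of the C4 demethylation that was chosen for its values, had 6.78, 6.64 and 6.33 FPKM at E18.5 and 3.54, 4.63 and 5.48 FPKM at E15.5, with a log2FC of 0.55 (SE 0.18, adjusted p = 0.297, limma).

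Dhcr7 was the one member lower at E18.5 in every library, with 0.895, 0.952 and 0.836 FPKM against 1.44, 1.66 and 1.5 FPKM at E15.5. Its log2FC was -0.72 (SE 0.18, unadjusted p = 0.00554, adjusted p = 0.202, limma) and -0.76 without E15.5 replicate 1. Stard4 had 9.87, 10.6 and 8.36 FPKM at E18.5 and 8.94, 6.31 and 5.87 FPKM at E15.5, with 1 pair of libraries out of order and a log2FC of 0.46 (SE 0.19, adjusted p = 0.403, limma).

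The genes at the head of the sterol route were not separated by day. Hmgcs1 had 10.0, 16.6 and 17.0 FPKM at E18.5 and 20.8, 12.1 and 11.8 FPKM at E15.5, and Sqle had 5.69, 7.07 and 6.64 against 9.67, 5.68 and 5.59 FPKM. In both, E15.5 replicate 1 was high and the other E15.5 libraries lay near the low end of E18.5. Insig1 followed the same order, with 9.49, 14.8 and 16.3 FPKM at E18.5 and 27.2, 13.9 and 10.8 FPKM at E15.5. The log2FC values of these 3 genes were -0.02, -0.07 and -0.28 (SE 0.29, 0.23 and 0.37), and 0.24, 0.19 and 0.10 without E15.5 replicate 1.

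Cyp51, lanosterol demethylase, had 6.84, 11.2 and 10.0 FPKM at E18.5 and 23.0, 8.55 and 7.87 FPKM at E15.5. Scd1 had 7.74, 7.77 and 8.23 FPKM at E18.5 and 30.0, 8.63 and 6.10 FPKM at E15.5, so that a log2FC of -0.56 (SE 0.54) became 0.12 (SE 0.16) without E15.5 replicate 1. Scd2, the highest member in this table, was at 52, 61.9 and 59.4 FPKM at E18.5 and 44.2, 61.3 and 59.9 FPKM at E15.5, and the days overlapped. Leaving out E15.5 replicate 1 raised the members above 0 from 20 to 27 of 31 and their median to 0.16, beside 0.03 for all tested rows. With that library left out, 7 members were higher at E18.5 at an unadjusted p under 0.05, Idi1 being the one added (against 5.60% of rows), 1 was lower (Dhcr7, against 5.02%), and 0 passed the adjusted p or the criterion.

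The other members that had met the criterion between E0.5 and E4.5 overlapped between the days near term. Acat2 had 4.38, 4.61 and 5.04 FPKM at E18.5 and 5.69, 3.49 and 4.12 FPKM at E15.5, and Idi1 had 4.18, 6.20 and 7.08 against 7.15, 3.37 and 3.29 FPKM. Lss was at 1.18, 2.37 and 2.02 against 1.9, 1.7 and 1.74 FPKM, Msmo1 at 4.42, 3.09 and 3.86 against 8.83, 4.76 and 2.53, and Elovl6 at 2.57, 3.35 and 2.59 against 3.17, 2.09 and 2.47. E15.5 replicate 1 was the highest library of its day in all 5, and their log2FC values were 0.10, 0.39, 0.01, -0.33 and 0.14. The remaining members, not given by library here, ranged in log2FC from -0.33 (Fdps) to 0.26 (Pmvk), and none had an unadjusted p under 0.05.

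The markers of several tissues differed between the libraries near term. Epithelium markers summed to 207.3, 325.3 and 464.5 FPKM at E15.5 and 963.8, 672.6 and 673.9 FPKM at E18.5. Yolk sac and liver markers summed to 4.39, 139.3 and 1110.7 FPKM at E15.5 and 278.4, 777.9 and 131.8 FPKM at E18.5. Trophoblast markers summed to 35.4, 6.28 and 3.76 FPKM at E15.5 and 51.2, 67.4 and 47.8 FPKM at E18.5, and adipocyte markers to 58, 63.8 and 16.8 against 104.7, 42.5 and 58.4 FPKM. Smooth muscle sums were 2187.1 to 3140.9 FPKM at E15.5 and 2766.7 to 3530.5 FPKM at E18.5, and those of stroma and uterus markers overlapped between the days. The summed ovary list was 348.6 to 665.4 FPKM at E15.5 and 692.3 to 883.4 FPKM at E18.5. Of these sums Akr1c18, a progesterone-degrading enzyme, made up 323 to 635 and 665 to 843 FPKM. Hsd3b1 was at 0.0576 to 1.46 FPKM at E15.5 and 1.99 to 40.9 FPKM at E18.5. For Cyp17a1 the levels were 0.438 to 1.1 and 3.03 to 4.39 FPKM. Both met the study's criterion, at log2FC values of 5.1 and 2.07 (adjusted p = 0.205 and 0.107, limma). Cyp11a1 was lower in every E18.5 library (8.53 to 17.4 FPKM) than at E15.5, where it reached 22.7 FPKM. Star and Inha overlapped between the days, and Lhcgr, the LH receptor, was at most at 0.0409 FPKM. Adrenal markers, mainly Akr1b7, summed to 177.9 to 352.4 FPKM at E15.5 and 87.1 to 167.8 FPKM at E18.5. The part of these tissues in the values of the members was not tested.

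**Figure D4:**
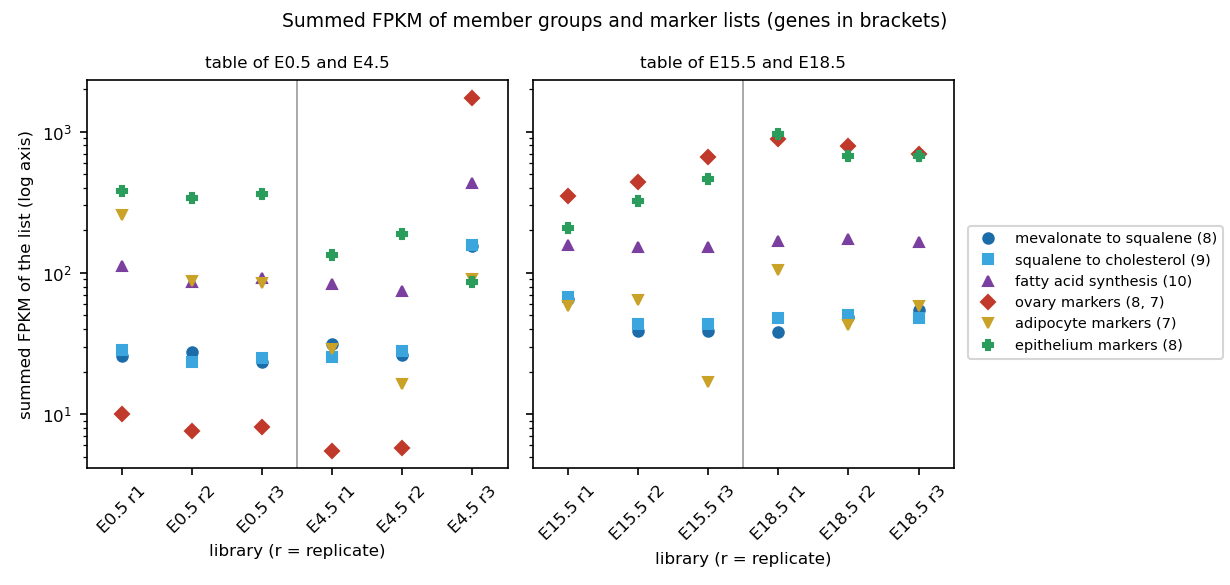
Summed FPKM (log axis) of the mevalonate, squalene to cholesterol and fatty acid genes and of ovary, adipocyte and epithelium markers in each library of both tables, which were normalized separately. E4.5 replicate 3 has the highest sum of the member groups and of ovary markers (1740.4 FPKM), while the fatty acid sums near term lie between 151.5 and 174.8 FPKM. The epithelium sum is higher in every E18.5 library than in any E15.5 library.

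Set side by side, the comparisons rest on different mice. Fasn did not overlap between the days in either table and was higher at E0.5 than at E4.5 and at E18.5 than at E15.5. On these days the summed epithelium markers were also higher in every library (337.7 to 379.1 against 86.2 to 189.9 FPKM in the first table). Krt7 and Krt18 of that list overlapped in the first table and Cldn7 in the second. In the first table the stroma sums were likewise higher in every E0.5 library (306.6 to 481.0 against 150.7 to 255.8 FPKM). Dhcr7 did not overlap either and was lower at E0.5 and at E18.5, but its first log2FC was -0.36 without E4.5 replicate 3. Acly was lower at E0.5 (-0.39 without E4.5 replicate 3) and higher at E18.5, in each case without overlap. These genes were picked for not overlapping in both tables. Of all rows, 12.8% were higher and 12.5% lower at E0.5 without overlap, and 10.9% higher and 8.96% lower at E18.5. The share of rows without overlap in both tables was not computed. None of these genes passed the adjusted p in either table. The part of epithelium or stroma in the level of Fasn was not tested, and the difference between the comparisons was not tested.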

How the data were processed

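RNA of 12 mouse uteri was sequenced by the authors. Per the labels' processing notes, HISAT2 2.0, Bowtie 0.12.2 and StringTie 1.3.0 and the builds mm10 and mm8 were involved, while the study's methods name Bowtie2 and Tophat2 and then StringTie and Ballgown. FPKM values were made by the authors per gene, separately for each pair of days, and deposited in 2 tables. The deposited counts of the first table are whole numbers, and how reads were assigned to genes, and whether strand was used, is not given in the sources used here. Values of 0.0001 FPKM in the first table were set back to 0. In GRCm38 the RefSeq genes of the same names overlap all 31 member rows. Assembled loci that have an identifier but no gene name, with 1.016% to 1.86% of all counts per library, were kept as features. The 2 tables come from separate assemblies, and no value of one was tested against the other.

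The first table was tested on its counts in edgeR 4.0.16 (TMM factors, quasi-likelihood), and log2(FPKM + 0.1) of the second in limma 3.58.1 with an intensity trend, under R 4.3.3, with rows of a mean of at least 0.1 FPKM (59732 and 30928 rows). All 31 members passed this filter in both tables. Adjusted p-values follow Benjamini-Hochberg over all tested rows. Log2 fold changes are E0.5 relative to E4.5 and E18.5 relative to E15.5. The study names edgeR and Ballgown for its calls. Percentages beside counts of members are the share of all tested rows that met the same rule. Values in every library are given for members past a threshold in either table and for the anchors Hmgcs1, Sqle, Insig1, Srebf1, Srebf2, Fasn, Scd1 and Scd2, and other members are given by range, with a few (Mvd, Me1, Cyp51, Nsdhl and Fads2) chosen after their values were seen. Other pathway genes are named where they met the study's criterion, and some of them are not reported here.

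The members, lists and tests were chosen with earlier results of these data known. Alternatives were DESeq2 1.42.0, other scalings, filters and pseudocounts, a block on the replicate number and each library left out. An exact permutation test of 3 against 3 libraries cannot give a p below 0.1 and was not used. The tests were tried on simulated data. Tables were handled in Python 3.11.15 with pandas 2.3.3, and figures were drawn with matplotlib 3.10.9.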

Additional observations from a re-analysis of the deposited data

How the results depend on the processing

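For E0.5 against E4.5, the count of members past the adjusted p was 0 in edgeR with upper quartile factors, library totals, no filter, a minimum of 1 FPKM and the replicate block and in limma on FPKM, but 5 in DESeq2, which gave no adjusted p for 7 members. By the study's criterion 8 members were called (12.2% of all rows), 10 with no filter (11.2%), 8 with library totals (12.2%), 7 in DESeq2 (14.5%), with upper quartile factors (12.3%) and with a minimum of 1 FPKM (12.0%), 5 in limma (12.9%) and 4 with the replicate number as a block (10.4%). With one library left out, the adjusted count ran from 0 to 4, the criterion count from 3 to 16 and the median log2 fold change from -1.26 to -0.08. The rows past the adjusted p moved too, from 0.0% to 6.28% of all tested, and those past the criterion from 10.1% to 14.4%. The adjusted count of 4 and the median of -0.08 came without E4.5 replicate 3 and the 16 without E4.5 replicate 2, when that library is 1 of 2 at E4.5. The labels share replicate numbers between days, but same-numbered libraries did not deviate together (correlations -0.0812, 0.0274 and -0.0767 in the first table, 0.000735, 0.0026 and -0.0359 in the second), so the block does not stand for a pairing. It left 0 members past the adjusted p in both tables, but in the first it left 0 of all 59732 rows, so that 0 says nothing about the members. The cause of these shifts was not tested.

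Of the member fold changes of E0.5 against E4.5, 203 of those computed under other settings kept their direction and side of the threshold, 7 kept their direction with no adjusted p from DESeq2, 5 passed it in addition, and 2 changed sign, both of Acss2 (0.06 in limma on FPKM, 0.11 with the replicate block, from -0.35). With one library left out, 169 were alike, 4 passed the threshold in addition and 13 changed sign. The ranges were -2.16 to 0.25 for Fdps, -1.26 to 0.00 for Fdft1, -1.36 to 0.21 for Cyp51, -0.26 to 0.17 for Tm7sf2, -2.25 to 0.64 for Sc5d, -0.45 to 0.11 for Srebf2, -0.85 to 0.57 for Insig1, -0.75 to 0.93 for Acss2, -4.16 to 0.27 for Me1 and -1.12 to 0.06 for Fads1, each with its highest value without E4.5 replicate 3, and -0.54 to 1.15 for Scd1.

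For E18.5 against E15.5, 0 members passed the adjusted p or the criterion under any alternative run. All 120 fold changes of the 15 members followed there kept their direction under other pseudocounts, scalings, filters, limma without trend and the block. Leaving out one library changed the sign of 8, with ranges of -0.16 to 0.24 for Hmgcs1, -0.20 to 0.19 for Sqle, -0.61 to 0.16 for Cyp51, -0.56 to 0.10 for Insig1, -1.02 to 0.12 for Scd1 and -0.07 to 0.16 for Scd2, each changing sign without E15.5 replicate 1. With 3 mice a group, differences within this spread were not detectable, and at unknown depth near term no counting error could be given.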
